A study of Mus musculus with 18 samples.

Results

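The genes described here are 10 antioxidant genes, most of them known targets of the transcription factor NRF2: Slc7a11, Gclc, Gclm, Srxn1, Txnrd1, Prdx1, Sod1, Sod2, Hmox1 and Nqo1. They were chosen by name and matched by gene symbol in tables of 20257 genes from striatum and 20897 genes from nigra. All 10 were listed in both tables and passed the filter on low counts, so every gene was tested in both tissues. RNA was sequenced from the striatum and the substantia nigra of wild-type C57BL6 mice, whose age and sex the labels do not give. Control mice had phosphate-buffered saline (PBS) injected into the striatum and the peritoneum. A lesion group was given 4 µg of 6-hydroxydopamine (6-OHDA), a toxin that enters dopamine neurons and oxidizes their contents, into the striatum, and intraperitoneal PBS. A drug group had the same dose of 6-OHDA and TUG469, an agonist of the fatty acid receptor GPR40, at 10 mg/kg per day. All groups were labelled with a time of 3 weeks, and each had 3 libraries per tissue. The series concerns a GPR40 agonist in a mouse model of Parkinson's disease.

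NRF2, encoded by Nfe2l2, is held in the cytoplasm and marked for degradation by KEAP1, whose cysteines react with oxidants and electrophiles. Once KEAP1 is modified, NRF2 enters the nucleus, pairs with small MAF proteins and binds antioxidant response elements near its target genes, where BACH1 competes as a repressor. Targets supply glutathione, thioredoxin and NADPH and clear heme and quinones. In brain, NRF2 activity is best known from astrocytes, which export glutathione precursors to neurons, while dopamine neurons carry a high oxidant load from dopamine and iron.

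Total counts per library ran from 42242389 to 61992226 in striatum and from 51665747 to 61933756 in nigra. Tissue identity followed the labels. The summed level of 9 striatal projection neuron markers was 7178 to 9563 TPM (transcript level scaled for length and library total) in striatal PBS libraries and 256 to 377 TPM in nigral PBS libraries. Dopamine neuron markers, as a sum, were not lower than PBS in nigra labelled 6-OHDA, and were lower in nigra labelled 6-OHDA plus TUG469. In nigra their summed level was 374 to 409 TPM in PBS libraries, 411 to 568 TPM in libraries labelled 6-OHDA and 207 to 336 TPM in libraries labelled 6-OHDA plus TUG469. Slc6a3, the dopamine transporter, was at 57.5 ± 11.1, 54.6 ± 11.2 and 13.6 ± 2.76 CPM (counts scaled to library size; mean ± SD, n = 3) in those groups. The groups are therefore called by their labels throughout, as PBS, 6-OHDA-labelled and TUG469-labelled libraries. The labels do not say that the 3 libraries of a group came from separate mice, so p-values measure only the spread between these libraries, which may be technical.

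Of the 10 genes, 1 passed the test in 1 comparison: Slc7a11, the cystine importer, was lower in the TUG469-labelled nigra than in PBS nigra. The test was edgeR's quasi-likelihood F test, adjusted by the Benjamini-Hochberg method over all genes, with a threshold of 0.05. In that comparison 1.85% of all 19686 genes passed and 1.45% passed as lower. The 6-OHDA-labelled and PBS nigra differed in 0 of the 10 genes and in 0.00508% of all genes. TUG469-labelled and 6-OHDA-labelled nigra also differed in 0 of 10, against 0.00508% of all genes. In striatum 0 of 10 passed in each comparison, against 0% of all genes for 6-OHDA-labelled and for TUG469-labelled against PBS and 0.00523% for TUG469-labelled against 6-OHDA-labelled libraries. At an unadjusted p under 0.05 edgeR counted 3 of the 10 genes in nigra for 6-OHDA-labelled against PBS (14.3% of all genes), 2 for TUG469-labelled against 6-OHDA-labelled (8.20%) and 5 for TUG469-labelled against PBS (19.7%). In striatum it counted 0 (7.50%), 0 (7.49%) and 1 (12.5%) in the same order. Slc7a11 was also called for 6-OHDA-labelled against PBS nigra by DESeq2, with 3.12% of 13957 genes. The authors' deposited table called it there too, with 3.07% of 14005 genes. For these 2 sources, shares are of the genes that held an adjusted p, fewer than edgeR tested. Their adjusted p values for Slc7a11 in that comparison were 0.0150 (DESeq2) and 0.0152 (deposited), from the same libraries. Calls by these sources, here and below, are therefore not independent. Neither source called any of the 10 genes in striatum. Over all other ways of processing the data, these 2 included, at most 173, 63 and 319 of all genes were called there. These maxima are for 6-OHDA-labelled against PBS, TUG469-labelled against 6-OHDA-labelled and TUG469-labelled against PBS libraries. The comparisons within a tissue share libraries, so their values are set side by side and are not independent.

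**Figure D1:**
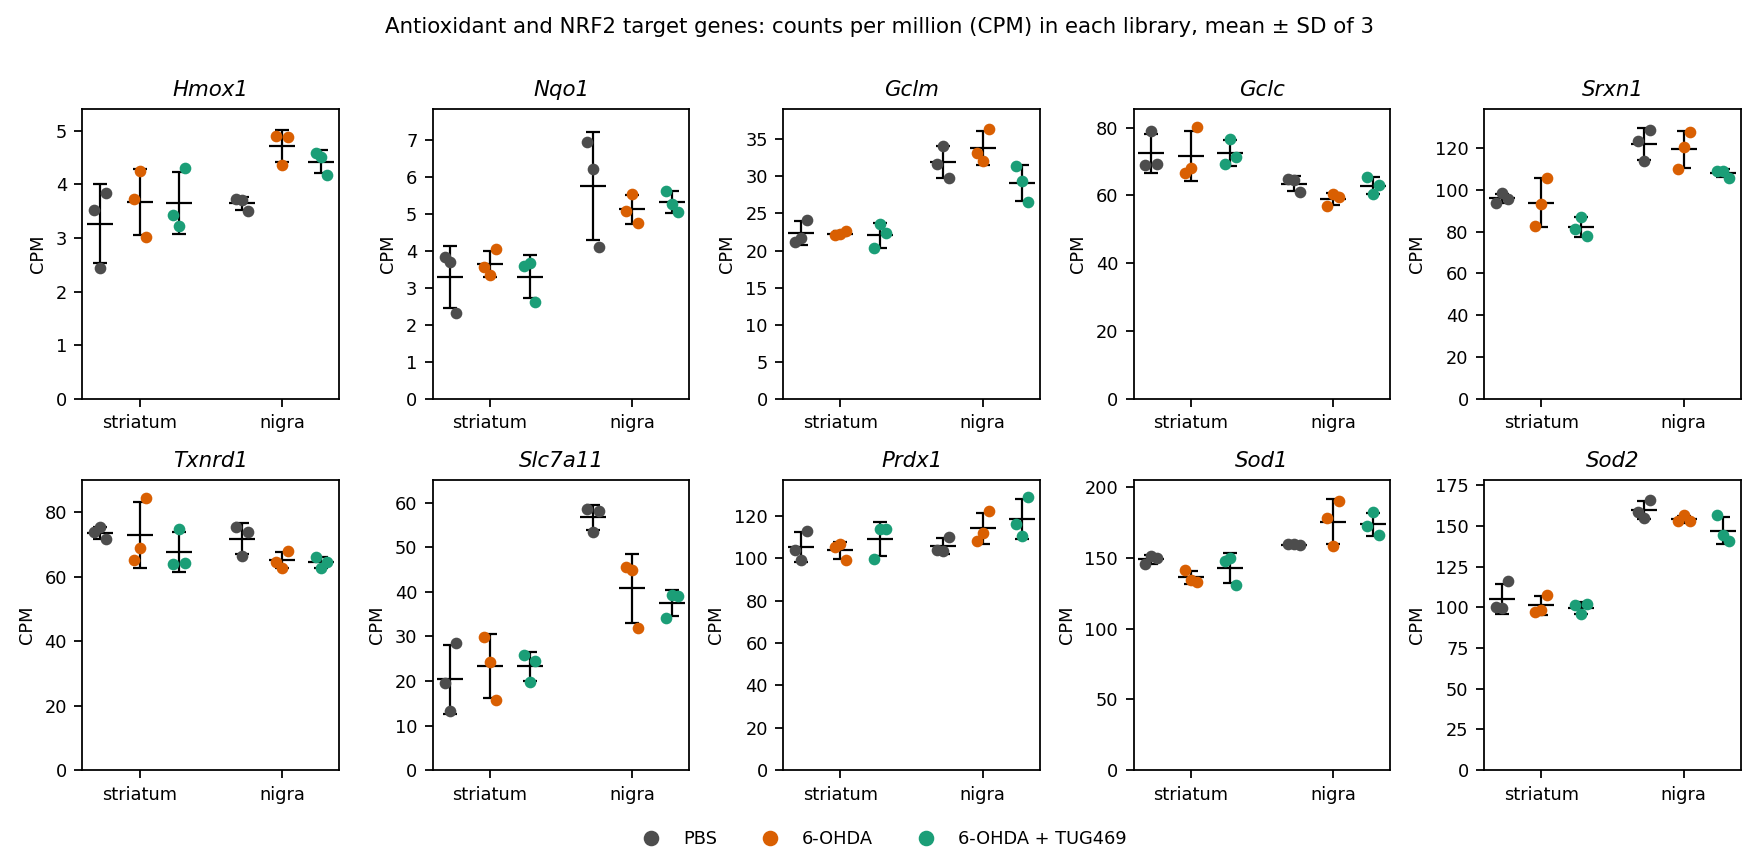
Level of each of the 10 genes in every library, in CPM scaled within each tissue, on axes that start at 0. Points are libraries, black marks are the mean and SD of 3 libraries, and colours give the group labels. In nigra all 3 TUG469-labelled points for Slc7a11 lie below the 3 PBS points.

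Per unit of transcript length, Sod1 was the most abundant of the 10 genes in both tissues. Over all 9 libraries of a tissue it stood at 541 ± 24.4 TPM in striatum and 666 ± 41.2 TPM in nigra. Prdx1 came next at 181 ± 12.7 TPM in striatum and 199 ± 10.8 TPM in nigra, and neither gene's range met that of its neighbours. Srxn1 and Sod2 followed, with ranges that overlapped in striatum (69.0 to 91.0 and 59.6 to 71.0 TPM) and in nigra (91.9 to 116 and 90.0 to 109.7 TPM). Gclc and Txnrd1 could not be separated in striatum, at 50.8 ± 3.33 and 50.4 ± 4.29 TPM. In nigra Txnrd1, Gclc and Gclm formed a run of overlapping neighbours between 31.3 and 56.3 TPM. The lowest levels belonged to Slc7a11, Hmox1 and Nqo1, each between 3.29 and 7.87 TPM in striatum and between 5.63 and 16.3 TPM in nigra, with overlapping neighbours. Hmox1 rested on 99 to 287 reads per library and Nqo1 on 121 to 358, against 6177 to 11198 for Sod1.

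Promoter sequences are shown for Slc7a11, because it passed the test in 1 comparison. They are also shown for the members whose window holds the core letters of an antioxidant response element. RefSeq windows of 250 bases before a transcript start (build GRCm38.p6) were found for 8 of the 10 genes, as 10 windows. Hmox1 and Gclc had no entry. The motif TGACNNNGC, read on both strands, was present in 3338 of 32851 mouse promoter windows of this length (10.2%). It was present in 4 of the 10 windows, 1 each for Gclm, Txnrd1, Prdx1 and Sod1. The remaining Txnrd1 windows hold no match and are not shown. Each match lay on the strand opposite the gene and so reads here as its reverse complement, in capitals. The lower-case Slc7a11 window holds no such letters.
Slc7a11 (chr3:50443614-50443863, minus strand): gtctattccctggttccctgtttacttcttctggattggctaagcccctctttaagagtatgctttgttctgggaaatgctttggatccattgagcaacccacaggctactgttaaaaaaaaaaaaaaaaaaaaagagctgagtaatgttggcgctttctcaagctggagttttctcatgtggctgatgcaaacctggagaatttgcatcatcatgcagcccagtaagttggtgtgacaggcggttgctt
Gclm (chr3:122245307-122245556, plus strand): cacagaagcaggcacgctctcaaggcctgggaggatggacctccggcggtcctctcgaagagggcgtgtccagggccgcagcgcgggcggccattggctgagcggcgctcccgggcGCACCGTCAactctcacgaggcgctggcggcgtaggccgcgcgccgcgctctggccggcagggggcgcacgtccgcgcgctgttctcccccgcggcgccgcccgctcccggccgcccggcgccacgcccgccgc
Txnrd1 (chr10:82858956-82859205, plus strand): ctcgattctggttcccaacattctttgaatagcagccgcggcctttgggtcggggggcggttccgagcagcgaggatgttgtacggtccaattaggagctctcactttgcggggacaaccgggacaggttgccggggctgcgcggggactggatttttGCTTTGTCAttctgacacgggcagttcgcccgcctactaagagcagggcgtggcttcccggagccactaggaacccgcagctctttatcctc
Prdx1 (chr4:116685349-116685598, plus strand): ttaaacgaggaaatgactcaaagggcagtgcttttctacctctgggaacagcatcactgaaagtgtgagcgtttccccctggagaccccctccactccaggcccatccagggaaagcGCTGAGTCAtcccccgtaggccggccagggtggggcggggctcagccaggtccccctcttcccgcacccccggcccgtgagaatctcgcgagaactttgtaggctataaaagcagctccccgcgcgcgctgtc
Sod1 (chr16:90220512-90220761, plus strand): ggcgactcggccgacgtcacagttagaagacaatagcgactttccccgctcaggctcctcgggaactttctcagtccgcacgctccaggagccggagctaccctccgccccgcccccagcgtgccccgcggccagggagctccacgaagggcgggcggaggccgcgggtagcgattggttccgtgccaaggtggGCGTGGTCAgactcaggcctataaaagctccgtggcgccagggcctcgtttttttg
The matches began 134 bases before the start for Gclm, 92 for Txnrd1, 133 for Prdx1 and 56 for Sod1. The Slc7a11 window belongs to a start inside the longer annotated gene, which spans chr3:50364936-50499087. The Txnrd1 window shown also belongs to a start inside its gene, which spans chr10:82833951-82897724. The Gclm window runs past the annotated start of its gene, at chr3:122245487. A match describes the letters in this window and is not evidence of binding.

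Slc7a11 encodes the transport subunit of the system that exchanges glutamate for cystine, whose supply often limits glutathione synthesis, and is expressed mainly by astrocytes in brain. In nigra it was measured at 58.7, 53.5 and 58.2 CPM in PBS libraries 1 to 3, at 45.5, 45.0 and 31.8 CPM in 6-OHDA-labelled libraries 2 to 4, and at 34.1, 39.2 and 39.1 CPM in TUG469-labelled libraries 1, 2 and 4. All 6 libraries with a 6-OHDA label were below all 3 PBS libraries, and the 2 labelled groups overlapped because of 6-OHDA-labelled library 4. Against PBS, Slc7a11 fell by 0.60 on the log2 scale in TUG469-labelled nigra (SE 0.124, edgeR adjusted p = 0.0467). In 6-OHDA-labelled nigra its log2 difference from PBS was -0.48 (SE 0.124, edgeR unadjusted p = 0.00318, adjusted p = 0.203), and -0.31 with a trend on transcript length and GC removed (edgeR adjusted p = 0.433). The authors' deposited table gave that difference as a signed fold of -1.39 with an adjusted p of 0.0152. TUG469-labelled against 6-OHDA-labelled nigra gave -0.12 (SE 0.124, edgeR adjusted p = 0.850).

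The Slc7a11 call in TUG469-labelled nigra lay close to the threshold. Over 12 other settings the log2 difference ran from -0.61 to -0.42 and passed in 5 of them, with adjusted p from 0.000242 to 0.147. Leaving out each of the 9 libraries in turn gave -0.64 to -0.54, and the call held in 1 of 9 cases, without 6-OHDA-labelled library 4 (edgeR adjusted p = 0.0203). Slc7a11 has a long transcript (9223 bases, GC 40.7%), and with a trend on length and GC removed the log2 difference was -0.42 (edgeR adjusted p = 0.138).

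Astrocyte markers were lower as a sum in TUG469-labelled nigra, while in 6-OHDA-labelled nigra their sum overlapped PBS. The summed level of 10 astrocyte markers in nigra was 2840 to 2949 TPM in PBS, 2772 to 2895 TPM in 6-OHDA-labelled and 2505 to 2691 TPM in TUG469-labelled libraries. Against PBS, 7 of the 10 were lower in TUG469-labelled nigra, with a median log2 difference of -0.17, and Gjb6 and Slc4a4 passed the test as lower. Among the markers that were not lower, Aqp4 and Aldh1l1 had log2 differences of 0.19 and 0.07 there. Fewer cells of a type and less RNA per cell cannot be told apart in bulk tissue, and the part of astrocyte number in the Slc7a11 difference was not tested. Slc3a2, the heavy chain that pairs with the Slc7a11 protein and was chosen for that role, was at 109.9 ± 4.01, 108 ± 4.34 and 109.8 ± 0.50 CPM in PBS, 6-OHDA-labelled and TUG469-labelled nigra. Its log2 difference between TUG469-labelled and PBS nigra was -0.00 (SE 0.0494, edgeR adjusted p = 0.996).

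**Figure D2:**
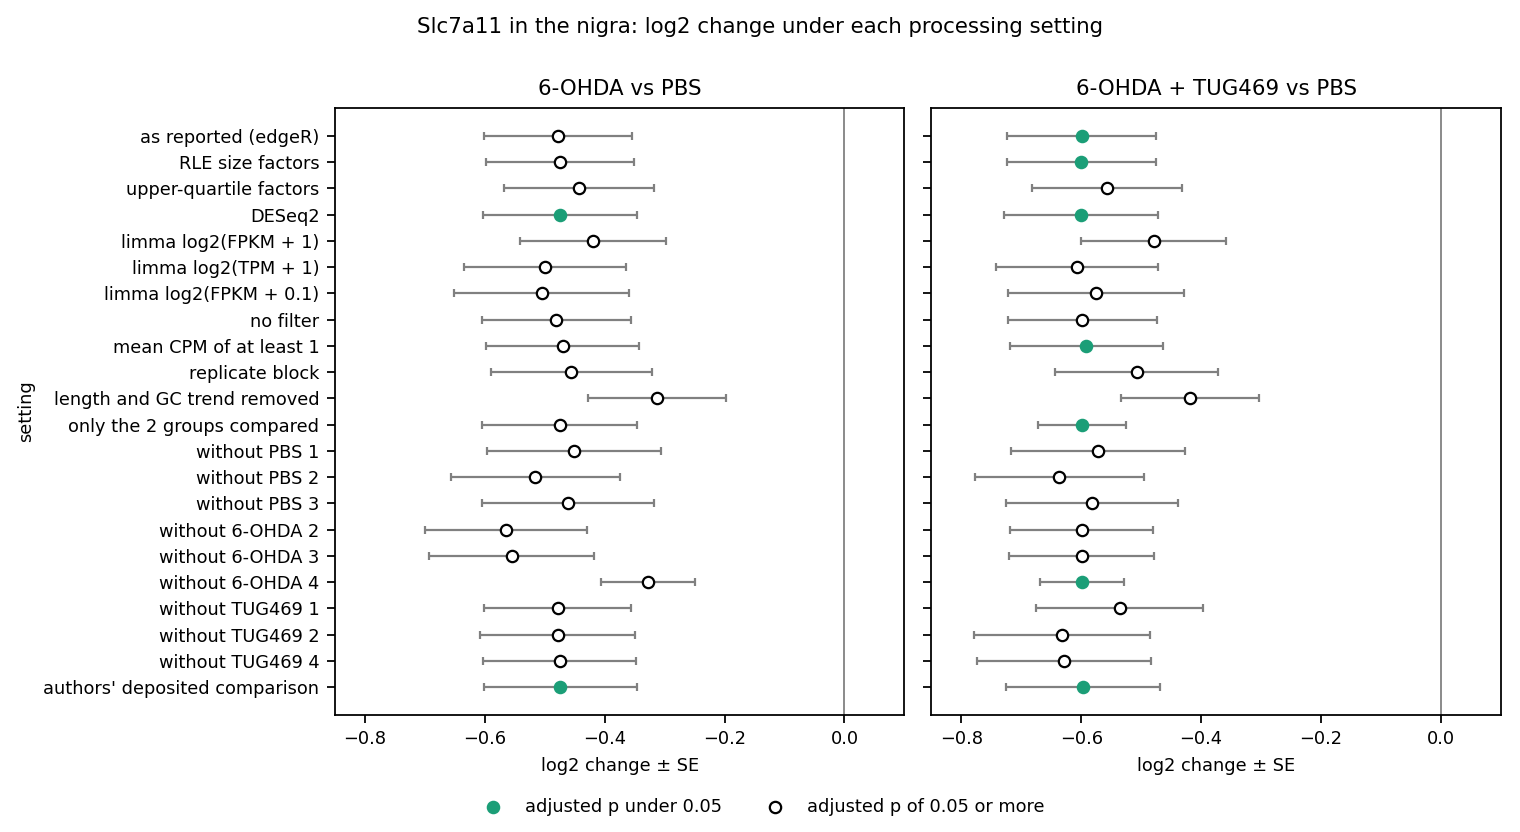
Log2 difference of Slc7a11 in nigra under each processing setting, with its standard error, for 6-OHDA-labelled against PBS libraries (left) and TUG469-labelled against PBS libraries (right). Filled points passed an adjusted p of 0.05. All points are below 0, and most of the settings that omit a library are open on the right.

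In striatum Slc7a11 varied more between libraries than between groups. It was measured at 19.5, 13.2 and 28.6 CPM in PBS, at 29.9, 24.3 and 15.7 CPM in 6-OHDA-labelled and at 25.8, 19.7 and 24.6 CPM in TUG469-labelled libraries. The groups overlapped throughout. The log2 difference from PBS was 0.19 for 6-OHDA-labelled (SE 0.282, edgeR adjusted p = 0.941) and 0.19 for TUG469-labelled libraries (SE 0.282, edgeR adjusted p = 0.828).

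Gclc and Gclm encode the catalytic and modifier subunits of glutamate-cysteine ligase, which takes the imported cysteine into glutathione. In nigra Gclc was at 65.0, 64.5 and 60.9 CPM in PBS libraries, 56.9, 60.4 and 59.6 CPM in 6-OHDA-labelled libraries and 65.3, 60.3 and 63.2 CPM in TUG469-labelled libraries. The 6-OHDA-labelled libraries lay just below the PBS range, with a log2 difference of -0.11 (SE 0.0531, edgeR adjusted p = 0.387), and the TUG469-labelled libraries spanned it. Nigral Gclm was at 31.7, 34.2 and 29.8 CPM in PBS, 33.1, 32.1 and 36.4 CPM in 6-OHDA-labelled and 31.4, 29.3 and 26.5 CPM in TUG469-labelled libraries. The TUG469-labelled libraries were all below the 6-OHDA-labelled ones, by a log2 difference of -0.22 that did not pass (SE 0.0821, edgeR adjusted p = 0.561). In striatum Gclc ranged from 66.6 to 80.3 CPM and Gclm from 20.3 to 24.2 CPM, with overlapping groups in all comparisons. Gclm exons share 296 bases with the antisense gene Gm17494 and 244 bases with the pseudogene Gm6061 on its own strand, so its counts are uncertain. The sources used here do not give the strand setting of the counting, which bears only on the Gm17494 overlap.

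The thioredoxin branch was represented by Txnrd1, the cytosolic thioredoxin reductase, Srxn1, which repairs overoxidized peroxiredoxins, and Prdx1, a peroxidase that they serve. Nigral Srxn1 was at 124, 114 and 129 CPM in PBS, 110.2, 121 and 128 CPM in 6-OHDA-labelled and 108.9, 109.1 and 106 CPM in TUG469-labelled libraries. The TUG469-labelled libraries lay below every other nigral library. The log2 difference was -0.18 from PBS (SE 0.0657, edgeR adjusted p = 0.178) and -0.15 from 6-OHDA-labelled libraries (SE 0.0657, edgeR adjusted p = 0.606), and neither passed. In striatum Srxn1 was at 93.6, 98.3 and 95.7 CPM in PBS, 82.5, 93.4 and 106 CPM in 6-OHDA-labelled and 81.4, 87.3 and 77.7 CPM in TUG469-labelled libraries. There too the TUG469-labelled libraries were below all PBS libraries, with a log2 difference of -0.22 (SE 0.0889, edgeR adjusted p = 0.351).

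Nigral Txnrd1 was at 75.4, 66.4 and 73.7 CPM in PBS, 64.6, 62.9 and 67.8 CPM in 6-OHDA-labelled and 66.2, 62.8 and 64.5 CPM in TUG469-labelled libraries. The TUG469-labelled libraries were below PBS without overlap, by a narrow margin, and the 6-OHDA-labelled ones overlapped it. The log2 differences from PBS were -0.14 (SE 0.0598, edgeR adjusted p = 0.327) in 6-OHDA-labelled and -0.16 (SE 0.0598, edgeR adjusted p = 0.190) in TUG469-labelled nigra. Nigral Prdx1 went the other way, at 103.9, 103.8 and 110.2 CPM in PBS, 108, 112 and 122 CPM in 6-OHDA-labelled and 116, 111 and 129 CPM in TUG469-labelled libraries. The TUG469-labelled libraries were all above PBS, with a log2 difference of 0.16 that did not pass (SE 0.0686, edgeR adjusted p = 0.226). In striatum Txnrd1 ranged from 63.8 to 84.5 CPM and Prdx1 from 99.2 to 114 CPM, and no pair of groups was separate for either gene.

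The superoxide dismutases turn superoxide into hydrogen peroxide, Sod1 in the cytosol and Sod2 in mitochondria. Nigral Sod1 was at 159.8, 159.7 and 158.8 CPM in PBS, 178, 158 and 191 CPM in 6-OHDA-labelled and 173, 182 and 166 CPM in TUG469-labelled libraries. The PBS libraries were nearly equal, all 3 TUG469-labelled libraries lay above them, and 1 of the 3 6-OHDA-labelled libraries did not. The log2 differences from PBS were 0.14 (SE 0.0680, edgeR adjusted p = 0.376) and 0.12 (SE 0.0680, edgeR adjusted p = 0.344). In striatum Sod1 stood at 145, 152 and 149.9 CPM in PBS, 141, 134 and 133 CPM in 6-OHDA-labelled and 148, 150.02 and 131 CPM in TUG469-labelled libraries. The striatal 6-OHDA-labelled libraries were all below PBS, with a log2 difference of -0.13 (SE 0.0702, edgeR unadjusted p = 0.0959, adjusted p = 0.751) and -0.15 to -0.11 when single libraries were left out. Ependymal markers were higher than PBS in both labelled groups of striatum. Their summed level was 65.8 to 76.3 TPM in 6-OHDA-labelled, 39.6 to 72.7 TPM in TUG469-labelled and 17.6 to 36.6 TPM in PBS libraries. Choroid plexus markers, of which 5 of 8 were analysed in striatum, reached 3253 TPM in 1 of the 6-OHDA-labelled libraries and 28.5 and 34.2 TPM in the others. The part of these cells in the Sod1 difference was not tested. Sod2 ranged from 141 to 166 CPM in nigra and from 95.6 to 116 CPM in striatum. Its log2 difference from PBS was -0.12 in TUG469-labelled nigra (SE 0.0536, edgeR adjusted p = 0.255) and smaller in size in the other groups.

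Hmox1, which opens heme and releases iron and biliverdin, is the most inducible of these genes in many cell types. In nigra it was at 3.72, 3.71 and 3.51 CPM in PBS, 4.90, 4.36 and 4.88 CPM in 6-OHDA-labelled and 4.59, 4.51 and 4.18 CPM in TUG469-labelled libraries. Both labelled groups lay wholly above PBS. The log2 difference was 0.37 in 6-OHDA-labelled nigra (SE 0.113, edgeR unadjusted p = 0.00812, adjusted p = 0.226) and 0.28 in TUG469-labelled nigra (SE 0.113, edgeR adjusted p = 0.207), and neither passed. Blood markers (hemoglobin genes and Alas2) were lower in both labelled groups than in PBS. The summed level of 5 of them in nigra was 101 to 255 TPM in PBS, 17.8 to 83.4 TPM in 6-OHDA-labelled and 8.18 to 59.0 TPM in TUG469-labelled libraries. The sum of 10 markers of microglia, a cell type that expresses Hmox1, was 372 to 447, 369 to 413 and 381 to 420.5 TPM in the same order. The part of blood and of microglia in the Hmox1 difference was not tested. In striatum Hmox1 was at 3.53, 2.43 and 3.84 CPM in PBS, 3.72, 4.25 and 3.02 CPM in 6-OHDA-labelled and 3.42, 3.22 and 4.31 CPM in TUG469-labelled libraries, and the groups overlapped.

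Nqo1, a quinone reductase used widely as a readout of NRF2 activity, did not follow Hmox1. Its nigral levels were 6.93, 6.21 and 4.11 CPM in PBS, 5.07, 5.53 and 4.76 CPM in 6-OHDA-labelled and 5.63, 5.27 and 5.04 CPM in TUG469-labelled libraries. PBS libraries alone spanned the other groups. The log2 differences from PBS were -0.17 (SE 0.176, edgeR adjusted p = 0.687) and -0.11 (SE 0.176, edgeR adjusted p = 0.760). In striatum Nqo1 ranged from 2.31 to 4.04 CPM with overlapping groups.

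Across the comparisons, groups that did not overlap were counted for all 10 genes and set beside all genes tested. In nigra 3 of 10 were separate for 6-OHDA-labelled against PBS (Hmox1 higher, Slc7a11 and Gclc lower), against 20.0% of all genes. For TUG469-labelled against PBS they were 6 of 10, namely Hmox1, Prdx1 and Sod1 higher and Slc7a11, Txnrd1 and Srxn1 lower, against 24.0% of all genes. For TUG469-labelled against 6-OHDA-labelled nigra they were 2 of 10, Gclm and Srxn1, both lower, against 14.4%. In striatum the counts were 1 of 10 (Sod1) against 11.8%, 1 of 10 (Srxn1) against 18.5% and 0 of 10 against 14.9%, for 6-OHDA-labelled against PBS, TUG469-labelled against PBS and TUG469-labelled against 6-OHDA-labelled libraries. The median log2 difference of the 10 genes in TUG469-labelled against PBS nigra was -0.12, beside 0.01 for all genes, with genes on both sides of 0.

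**Figure D3:**
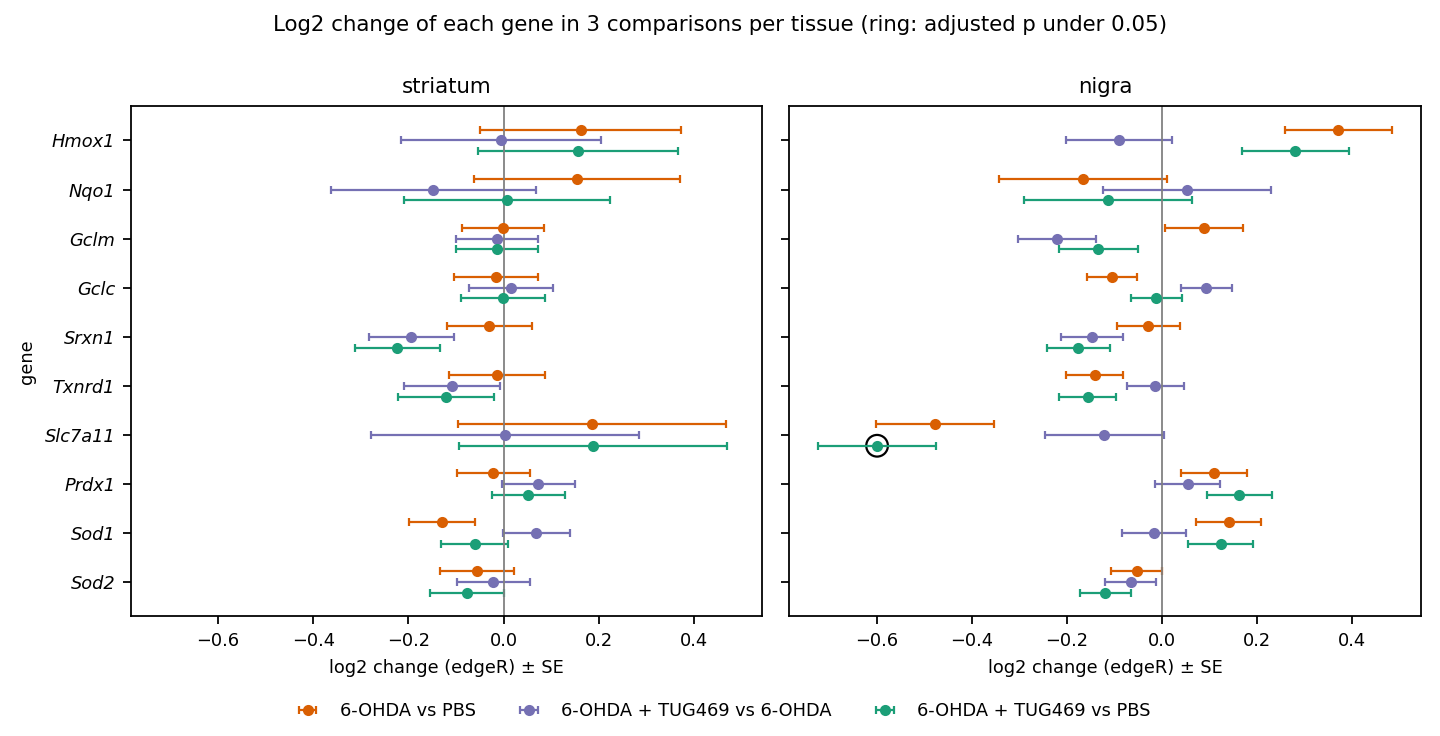
Log2 difference of each gene with its standard error in the 3 comparisons of striatum (left) and nigra (right), on 1 shared axis. The ring marks an adjusted p under 0.05. It is held by Slc7a11 for TUG469-labelled against PBS nigra, at -0.60.

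The 5 genes nearest to Hmox1 in pattern were AI413582, Tmem59l, Dok5, Tlcd1 and Iglon5. Nearness was the root mean square difference of log2 CPM, each gene centred within its tissue, over 18 libraries and 18369 genes. It was 0.0840 for AI413582 and 0.106 to 0.114 for the other genes, beside a median of 0.271 over all genes and a spread of 0.209 for Hmox1 itself. The measure favours genes of small spread.

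Between the tissues of PBS mice, 5 of the 10 genes differed, against 55.8% of all genes in a fit of all 18 libraries. Slc7a11 was higher in nigra by 1.32 on the log2 scale (SE 0.239, edgeR adjusted p = 0.000215), Nqo1 by 0.65 (SE 0.205, edgeR adjusted p = 0.0128), Sod2 by 0.45 (SE 0.0672, edgeR adjusted p = 3.4e-05) and Gclm by 0.36 (SE 0.0843, edgeR adjusted p = 0.00181). Gclc was lower in nigra by a log2 difference of -0.35 (SE 0.0760, edgeR adjusted p = 0.00105) and its call held in 7 of 10 other settings, with log2 differences from -0.40 to -0.06 and adjusted p up to 0.446 with limma on TPM. Hmox1, Prdx1, Sod1, Srxn1 and Txnrd1 did not pass, with log2 differences of -0.00, -0.15, -0.06, 0.19 and -0.19. The sign turned to higher for Txnrd1, Prdx1 and Sod1 in each of the 3 limma settings on FPKM or TPM, and Hmox1, near 0, took both signs. In 10 other settings Srxn1 passed in 5 as higher, Prdx1 and Txnrd1 in 2 each as lower, and Sod1 in 1 as higher. In this fit 8 of 10 genes had separate groups, against 61.1% of all genes. The groups of Nqo1 overlapped, and its call held in 16 of 18 fits with a library left out (edgeR adjusted p up to 0.0705). Of 10 astrocyte markers 8 were higher and 2 lower in nigra, and their part in the tissue differences was not tested.

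The change from PBS to 6-OHDA-labelled libraries was also compared between tissues. It differed for 0 of the 10 genes, against 0.155% of all genes. Sod1 came nearest, with its change higher in nigra by 0.27 on the log2 scale (SE 0.0987, edgeR unadjusted p = 0.0157, adjusted p = 0.271). For Slc7a11 the difference of changes was -0.66 (SE 0.334, edgeR adjusted p = 0.445). The change from 6-OHDA-labelled to TUG469-labelled libraries differed between tissues for 0 of 10 genes, against 0% of all genes, with adjusted p at 0.9997 for each and 0 of the 10 at an unadjusted p under 0.05. DESeq2 and limma also called 0 of the 10 in both of these. In the first, DESeq2 called 1.89% of the 18016 genes that held an adjusted p. In the second, no other setting called more than 4 of all genes.

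Genes that regulate or extend the pathway were read from 6 lists of 86 genes in all. Nfe2l2, which encodes NRF2, was at 22.7 ± 2.13 CPM in PBS, 22.2 ± 0.81 CPM in 6-OHDA-labelled and 18.02 ± 0.92 CPM in TUG469-labelled nigra. The TUG469-labelled libraries were below all others, by a log2 difference of -0.33 from PBS (SE 0.0796, edgeR adjusted p = 0.0653) and -0.30 from 6-OHDA-labelled libraries (SE 0.0796, edgeR adjusted p = 0.412), and neither passed by edgeR. DESeq2 and the authors' deposited table called Nfe2l2 lower for TUG469-labelled against PBS nigra. Keap1 was at 62.5 ± 3.35, 63.7 ± 4.25 and 66.7 ± 4.02 CPM and Bach1 at 22.1 ± 1.54, 21.7 ± 1.56 and 20.7 ± 0.68 CPM in the same 3 groups, with overlap throughout. In striatum Nfe2l2 was at 17.9 ± 0.35, 17.5 ± 2.06 and 15.9 ± 1.47 CPM, and Nfe2l2, Keap1 and Bach1 did not pass in any striatal comparison. Maff, a small MAF partner named for the size of its difference, was at 2.90 ± 1.48 CPM in PBS, 1.51 ± 0.21 CPM in 6-OHDA-labelled and 0.91 ± 0.51 CPM in TUG469-labelled nigra, with overlapping groups (log2 -1.67 for TUG469-labelled against PBS, SE 0.438, edgeR adjusted p = 0.0805). DESeq2 and the authors' deposited table called it lower.

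For TUG469-labelled against PBS nigra, 2 of the 86 genes passed edgeR's test, 1 in each direction (0.401% of all genes passed as higher and 1.45% as lower), and 58 had a log2 difference above 0, against 51.6% of all genes. Sod3, the extracellular superoxide dismutase, rose from 10.9 ± 0.82 CPM in PBS to 16.3 ± 2.61 CPM, with 13.9 ± 0.78 CPM in 6-OHDA-labelled libraries (log2 0.58 from PBS, SE 0.117, edgeR adjusted p = 0.0453). Sesn3, a sestrin, of a family that restrains mTORC1 signalling and acts with peroxiredoxins, fell from 37.9 ± 2.46 CPM to 21.0 ± 3.77 CPM, with 25.7 ± 3.23 CPM in 6-OHDA-labelled libraries (log2 -0.85, SE 0.130, edgeR adjusted p = 0.0204). Its transcript is nearly as long as that of Slc7a11, at 9125 bases. The median log2 difference of the 86 genes was 0.06, beside 0.01 for all genes, and 28 of 86 had separate groups, against 24.0% of all genes. Separate but short of the threshold by edgeR were the iron exporter Slc40a1 (log2 0.42, SE 0.109, edgeR adjusted p = 0.0782), the pentose phosphate enzyme Tkt (0.22, SE 0.0647, edgeR adjusted p = 0.104) and the glutathione transferase Gstp1 (0.20, SE 0.0636, edgeR adjusted p = 0.122). The Sod3 call held in 4 of 12 other settings and in 1 of 9 with a library left out, without TUG469-labelled library 4. The Sesn3 call held in 10 of 12 and in 7 of 9, and was lost without PBS library 1, without TUG469-labelled library 2, with the length and GC trend removed and with only the 2 groups compared in the fit (edgeR adjusted p = 0.106, 0.105, 0.0764 and 0.0574). DESeq2 called 6 of the 86 higher in this comparison (Tkt, Slc40a1, Blvra, Cat, Sod3 and Park7) and 4 lower (Nfe2l2, Maff, Sesn1 and Sesn3). It called 10.0% of the 15480 genes that held an adjusted p. The authors' deposited table called the same 10 genes, with 9.63% of 15623 genes.

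For 6-OHDA-labelled against PBS nigra, 0 of the 86 genes passed edgeR's test, against 0.00508% of all genes. At an unadjusted p under 0.05 edgeR counted 14 higher and 3 lower (6.29% and 8.03% of all genes). DESeq2 called 3 higher (Blvra, Glrx5 and Park7) and 1 lower (Sesn3), beside 3.12% of the 13957 genes that held an adjusted p. Blvra, the biliverdin reductase that acts after heme oxygenase, was at 13.7 ± 1.06 CPM in PBS and 18.1 ± 1.73 CPM in 6-OHDA-labelled libraries (log2 0.40, SE 0.0907, edgeR adjusted p = 0.170). Glrx5, a mitochondrial glutaredoxin of iron-sulfur cluster assembly, was at 25.1 ± 0.82 and 32.1 ± 2.98 CPM (log2 0.36, SE 0.0758, edgeR adjusted p = 0.170). Park7, which encodes the redox sensor DJ-1 and is mutated in familial Parkinson's disease, was at 69.3 ± 1.53 and 80.6 ± 5.41 CPM (log2 0.22, SE 0.0582, edgeR adjusted p = 0.203). These 3 had separate groups and none passed by edgeR. Sesn3 had a log2 difference of -0.56 (SE 0.130, edgeR adjusted p = 0.172).

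For TUG469-labelled against 6-OHDA-labelled nigra, 0 of the 86 genes passed edgeR's test, against 0.00508% of all genes. At an unadjusted p under 0.05, 2 were higher and 3 lower (3.86% and 4.35% of all genes), and DESeq2 called 0. Settings other than the reported one, DESeq2 included, called at most 91 of all genes there. Slc40a1 was at 7.87 ± 0.10 CPM in 6-OHDA-labelled and 10.7 ± 0.44 CPM in TUG469-labelled libraries (log2 0.44, SE 0.109, edgeR adjusted p = 0.401). In striatum 0 of the 86 passed in any comparison by edgeR or DESeq2, and by edgeR 0% to 0.00523% of all genes did. No other setting, DESeq2 included, called more than 319 of all genes in a striatal comparison. At an unadjusted p under 0.05 edgeR counted 0 higher and 8 lower for 6-OHDA-labelled against PBS (4.21% and 3.29% of all genes), while limma on log2(FPKM + 1) counted 2 higher and 2 lower (6.52% and 1.93%). Gstm5, Prdx5, Tfrc and Park7 were among the genes with separate groups. Prdx5, a peroxiredoxin of mitochondria and peroxisomes, was at 110.4 ± 1.51 CPM in PBS and 94.2 ± 6.56 CPM in 6-OHDA-labelled striatum (log2 -0.23, SE 0.0642, edgeR adjusted p = 0.387), and at 150.0 ± 4.04 and 171 ± 12.4 CPM in the same groups of nigra (log2 0.19, SE 0.0578, edgeR adjusted p = 0.226). The difference between those changes was 0.42 (SE 0.0833, edgeR adjusted p = 0.0559) and did not pass by edgeR. There edgeR called 0 of the 86, against 0.155% of all genes. DESeq2 called 5 higher (Gpx4, Gstm5, Glrx5, Prdx5 and Park7), with 1.89% of the 18016 genes that held an adjusted p. Between tissues in PBS mice 36 of the 86 genes were higher in nigra and 19 lower, against 28.5% and 27.3% of all genes. They included Gpx3, a secreted glutathione peroxidase (log2 3.71 higher in nigra, SE 0.433), and Cbr3, a carbonyl reductase (log2 -4.21, lower in nigra, SE 0.231).

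**Figure D4:**
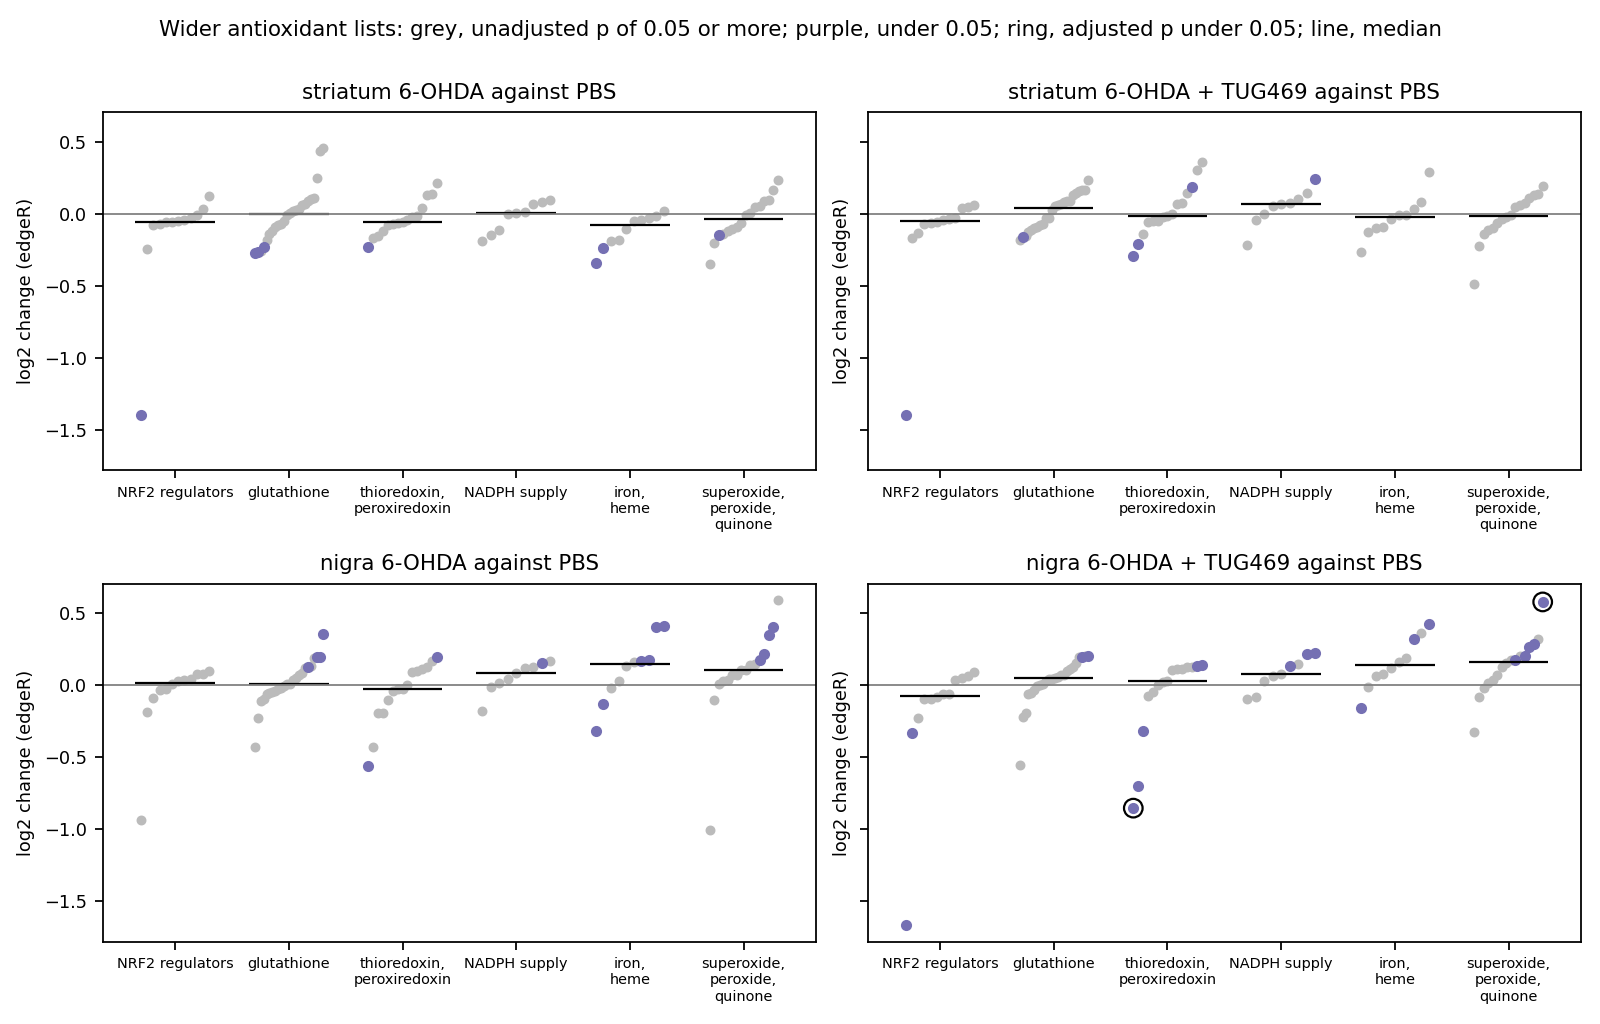
Log2 difference of the 86 genes of 6 wider lists in 4 comparisons, with 1 point per gene and a line at each list's median. Purple points have an unadjusted p under 0.05 and rings an adjusted p under 0.05. Rings appear for Sesn3 and Sod3, for TUG469-labelled against PBS nigra.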

How the data were processed

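Stranded mRNA libraries were made from RNA purified with a Qiagen RNeasy kit, per the labels' protocols. The submitters' processing notes name GRCm38, STAR 2.7.3a, Cufflinks, Trim Galore 0.38 and FastQC 0.11.7. They do not give the strand setting of the counting. The authors deposited whole-number read counts for each gene and library, FPKM and TPM values, and log2 normalized values, per the file headers. For each pair of groups the deposited tables also give a signed fold, its error, a test statistic (a score) and p-values before and after adjustment. A gene is listed where every library of its tissue holds at least 1 read.

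From the counts, edgeR 4.0.16 in R 4.3.3 was run with TMM factors and filterByExpr (minimum count 10, minimum total 15), leaving 19115 genes in striatum and 19686 in nigra. One fit per tissue gave 3 comparisons, and a fit of 18749 shared genes in 18 libraries gave the tissue comparisons, from 6 group means without a covariate. Adjustment followed Benjamini and Hochberg over all genes tested (threshold 0.05). CPM are TMM-scaled within a tissue. The code was tested on simulated counts. Alternatives were DESeq2 1.42.0, limma 3.58.1 on log2(FPKM + 1), other scalings and filters, a replicate block, omission of each library and removal of a length and GC trend. Replicate counts differed by more than sampling noise in all pairs, so none was treated as a repeat.

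The members, lists and tests were chosen with earlier results of these data known. Named genes were the 10 members, Nfe2l2, Keap1, Bach1, and per list and comparison up to 4 genes past the threshold with separate groups, or else the 1 with the smallest p and separate groups, of which a selection is printed. Maff and Slc3a2 fall outside the rule. Positions and promoters are from RefSeq on GRCm38.p6.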

Additional observations from a re-analysis of the deposited data

How the results depend on the processing

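In TUG469-labelled against PBS nigra the count of called genes among the 10 went from 1 to 0 with upper-quartile factors, with limma on log2(FPKM + 1), log2(TPM + 1) or log2(FPKM + 0.1), without a filter, with a replicate block, and with a length and GC trend removed (chosen after seeing the data; a length was known for 89.3% of the nigral genes tested). Omitting single libraries gave 0 to 1. The adjusted p of Slc7a11 was 0.0631, 0.0928, 0.0501, 0.0905, 0.0530, 0.147 and 0.138 in those settings, always with a lower level; the cause was not tested. In 6-OHDA-labelled against PBS nigra the count went from 0 to 1 (Slc7a11) with DESeq2 (adjusted p = 0.0150) and in the authors' deposited table; without 6-OHDA-labelled library 4 the log2 difference of Slc7a11 went from -0.48 to -0.33. For PBS nigra against striatum, Txnrd1 turned to 0.000958, 0.0907 and 0.000924, Sod1 to 0.14, 0.23 (adjusted p = 0.00826) and 0.14, and Prdx1 to 0.05, 0.14 and 0.05 with limma on FPKM + 1, TPM + 1 and FPKM + 0.1, settings in which the median of all genes was 0.11, 0.22 and 0.18 on the log2 scale; the cause was not tested. Over all comparisons and settings 180 of 2100 values of the 10 genes had the sign opposite to the one reported. None of these 180 belonged to a reported call, and 160 lay within 1 SE of the reported value.

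Same-numbered libraries did not meet the requirement that every pair correlate over 0.1. Correlations of their deviations ran from -0.435 to 0.586 within tissues, and from -0.0244 (PBS library 1) to 0.313 between striatum and nigra, where the other 8 pairs exceeded 0.1. Pairs within a tissue join libraries of different groups, so they cannot come from 1 mouse. The labels do not say whether same-numbered striatum and nigra libraries of a group did. The replicate block was the library number in the fits within a tissue, and the group with that number in the fit of both tissues. With this block 6 of the 10 genes differed between the tissues of PBS mice, against 10560 of all 18749 genes. Srxn1 was the gene added (edgeR adjusted p = 0.0230). The change from PBS to 6-OHDA-labelled libraries differed between tissues for 0 of the 10 and for 66 of all genes, against 29 without the block. Within nigra the block took the log2 difference of Slc7a11 in TUG469-labelled against PBS libraries to -0.51. The number of all genes called in that comparison, 364, ranged from 13 to 1553 over other settings and from 8 to 527 with single libraries left out. In 6-OHDA-labelled against PBS nigra it was 1 and ranged from 0 to 436. With 3 libraries per group and Hmox1 and Nqo1 at under 400 reads, small changes of these 2 genes are the least resolved.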
